A study of Homo sapiens with 6 samples.

Results

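The genes of this report carry out and follow the exit from mitosis: the anaphase-promoting complex (APC/C), the enzymes and kinases that work with it, separase and its inhibitor, and the proteins that divide the cell. They were chosen by symbol, and all 34 were found among the 24305 gene symbols of the count and FPKM tables. RNA was taken from DU 145 cells, an established line of human castration-resistant prostate cancer labelled as epithelial, after 48 h with talazoparib, a drug that blocks PARP1 and PARP2 and traps them on DNA (n = 3 libraries, replicates 1 to 3), or after 48 h in a control labelled "DMOS" (n = 3). The series text names talazoparib at 5, 10 and 20 µM and presents DU 145 as deficient in homologous recombination repair. The labels give no dose for these libraries, all 6 come from the 1 cell line, and nothing says that replicates were separate cultures, so the p-values speak only to spread among these 6 libraries, and that spread may be technical.

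The APC/C is a ubiquitin ligase of many subunits that marks cyclin B and securin for destruction by the proteasome. Its coactivator CDC20 works at the start of anaphase, after the spindle checkpoint is satisfied, and FZR1 (also called CDH1) works in late mitosis and the following gap phase. Loss of securin frees separase to cut cohesin, and the central spindle then directs RHOA to the furrow that closes between the daughter cells. Many of these genes are transcribed mainly in late S, G2 and M phase. In bulk RNA, fewer cells in those phases and less RNA per cell cannot be told apart.

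Levels are CPM, counts over the library total scaled by edgeR. In the values, ± after a level is the SD over 3 libraries and ± after a log2 fold change is its SE. All 34 genes had enough counts to be tested (the lowest count in any library was 105), so none was left out by the filter on low counts. With talazoparib 15 of the 34 fell, 11 rose and 8 did not pass edgeR's quasi-likelihood test at a Benjamini-Hochberg adjusted p under 0.05. Over all 14452 genes tested, 29.9% fell and 26.8% rose, so 56.7% changed in either direction, against 26 of the 34. The median log2 fold change was -0.19 for the 34 genes and 0.00 for all genes tested. Falls of at least 2-fold were found for ANAPC1, ANAPC4, PLK4, BORA, ECT2, ANLN and MKI67 (7 genes, against 9.75% of all genes tested), and no member rose by as much, against 2.75% of all genes. The groups did not overlap in 26 of the 34 (64.4% of all genes). The number of rising members depended on single libraries. It was 11 with all 6, but 6 without control replicate 2, 5 without control replicate 3, and 6 without talazoparib replicate 1 or 2. Over all genes the rises also became fewer, from 3873 to 2715, 2622, 3191 and 3349 in the same order of fits. The number of falling members stayed between 14 and 17.

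Control replicate 1 stood apart from the other controls. Of the 15 falling members it was the lowest control in 14, and of the 11 rising members the highest control in 10. The log2 difference between control replicate 1 and the other controls had a median of -0.24 over the falling members and 0.12 over the rising ones. The same held over all genes: control replicate 1 was the control nearest to talazoparib in 80.5% of the 4327 genes that fell and 78.1% of the 3873 that rose. Without it, 17 members fell and 10 rose, against 4548 and 3858 of the 14724 genes tested in that fit.

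Across all genes the changes also followed the base composition and length of the mRNA. The members lean towards low GC content and short length. Of them, 10 have a GC content at or over the median of all genes (49.38%), where 49.8% of all genes rose and 6.31% fell, and 8 of these 10 members rose and 1 (CIT) fell. Of the 24 members under the median, where 5.37% of all genes rose and 55.5% fell, 3 rose and 14 fell. By length, 22 members are under the median of all genes (4046 bases), where 38.6% of all genes rose and 15.1% fell. Of these 22, 9 rose and 8 fell. Of the 12 longer members, where 16.6% of all genes rose and 46.7% fell, 2 rose and 7 fell. A further fit removed each library's trend over GC content and log2 length, and its values are called trend-removed. In that fit, with calls at the same adjusted p, 14 members were lower and 10 higher (22.2% and 22.0% of 13718 genes) and their median was -0.02. Of the members, 12 were lower and 5 higher in both fits. The share of all genes called the same way in both fits was not computed. CDC27 and PLK1 passed with opposite signs. How much of any change belongs to that trend was not tested.

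**Figure D1:**
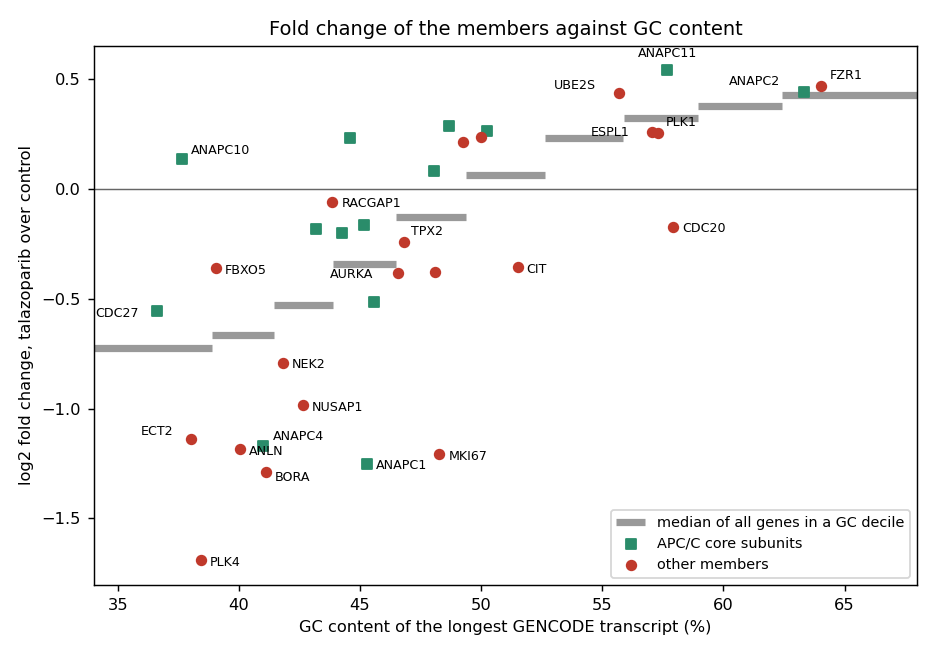
Log2 fold change of each member (talazoparib over control) against the GC content of its longest GENCODE transcript in percent, with the median of all genes in each GC decile as grey bars. PLK4, BORA, ANAPC4, ANLN, ECT2, NUSAP1, CDC20, CIT, MKI67 and ANAPC1, among others, lie below the bar of their decile. ANAPC10, ANAPC16 and RACGAP1, among others, lie above the bar of theirs.

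Cell cycle genes are often marked by the cell cycle homology region (CHR), letters TTTGAA or TTCGAA, which the MuvB core of the DREAM and MYB-MuvB complexes binds, and by CCAAT boxes, which NF-Y binds. RefSeq promoter windows (GRCh38.p14, 250 bases before to 50 after a start, any start of a gene counted) were matched for 30 of the 34 members, without UBE2C, AURKA, TPX2 and RACGAP1. A CHR on either strand was found in 16 of the 30 (53.3%), against 19.5% of all 27305 genes with a window and 14.6% of the 11447 that were tested. Of the members outside the APC/C core, 13 of 16 had one (81.2%), and 3 of the 14 core subunits did (21.4%). CCAAT, on either strand, was found in 14 of those 16 (87.5%) and in 6 of the 14 core subunits (42.9%), against 42.3% of the genes tested. These shares were not tested against each other. By direction of change, 9 of 13 falling members, 3 of 10 rising members and 4 of 7 others had a CHR. The shares among all falling and all rising genes were not computed. Direction is also mixed with core membership, since 5 of the rising and 4 of the falling members are core subunits. A match is a run of letters, not a shown binding site.

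The sequences below show some of the matches in genes that rose (PLK1, ESPL1), fell (MKI67, ECT2, PRC1, ANLN) or did not pass (CDC20, FBXO5). The core subunit CDC23 is added for contrast. They run 5′ to 3′ on the gene's own strand and come from RefSeq (GRCh38.p14). Capitals mark the CHR and the CCAAT box on either strand. Matches outside a printed stretch are not shown. PLK1, PRC1 and ECT2 also have CCAAT boxes in their windows, outside the short stretches printed. A CHR read on the other strand is spelled TTCAAA, and a CCAAT box ATTGG. In MKI67 the second CHR and an ATTGG share a base, and in ANLN a reverse and a forward CHR stand next to each other.
CDC20 (chr1:43358861-43358941, plus strand, bases 120 to 40 before a start): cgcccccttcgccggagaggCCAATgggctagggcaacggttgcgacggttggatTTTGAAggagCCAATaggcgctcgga
ESPL1 (chr12:53268179-53268298, plus strand, bases 120 to 1 before a start): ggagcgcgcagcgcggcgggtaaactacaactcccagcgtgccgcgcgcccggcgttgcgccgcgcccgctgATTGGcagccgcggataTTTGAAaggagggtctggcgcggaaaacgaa
MKI67 (chr10:128126424-128126543, minus strand, bases 120 to 1 before a start): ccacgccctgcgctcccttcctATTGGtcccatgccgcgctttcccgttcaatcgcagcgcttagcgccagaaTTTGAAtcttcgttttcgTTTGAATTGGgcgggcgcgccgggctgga
FBXO5 (chr6:152983042-152983161, minus strand, bases 120 to 1 before a start): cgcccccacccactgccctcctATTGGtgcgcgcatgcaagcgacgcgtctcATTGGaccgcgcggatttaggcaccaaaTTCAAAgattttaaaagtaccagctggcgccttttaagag
CDC23 (chr5:138213363-138213443, minus strand, bases 120 to 40 before a start): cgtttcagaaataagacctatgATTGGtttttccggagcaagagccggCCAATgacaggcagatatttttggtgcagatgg
PLK1 (chr16:23678850-23678875, plus strand, bases 39 to 14 before a start): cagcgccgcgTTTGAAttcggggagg
PRC1 (chr15:90994540-90994565, minus strand, bases 30 to 5 before a start): cgtggcgcggTTTGAAattttgcggg
ECT2 (chr3:172750601-172750626, plus strand, bases 125 to 100 before a start): gttgggcttaTTTGAAacacacgcac
ANLN (chr7:36389831-36389856, plus strand, bases 31 to 6 before a start): tgaaaTTCAAATTTGAAcggctgcag
The stretches of PLK1, PRC1 and ANLN lie in GENCODE 29 exons of the same genes, and the others overlap no annotated exon. PLK1 and PRC1 carry the same TTTGAA close to a start, and PLK1 rose while PRC1 fell. The rise of PLK1 had overlapping groups and passed in only 2 of the fits without a single library. Trend-removed, both genes were lower (-0.16 for PLK1 and -0.33 for PRC1). CDC23 has a pair of CCAAT boxes and no CHR in the printed stretch.

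The 14 core subunits of the APC/C moved both ways. Of them 5 rose (ANAPC2, ANAPC5, ANAPC11, ANAPC15, ANAPC16), 4 fell (ANAPC1, ANAPC4, CDC16, CDC27) and the other 5 missed the threshold. These shares of 35.7% and 28.6% are near the 26.8% and 29.9% of all genes tested that rose and fell. The median over the 14 was -0.04 on the log2 scale. The rises numbered 3 with total count scaling and between 3 and 5 when single libraries were left out. Trend-removed, 7 core subunits were higher and 3 lower (median 0.11), against 22.0% and 22.2% of all genes in that fit.

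ANAPC1 (chromosome 2, 111611639 to 111884690, GRCh38, GENCODE 29) encodes the largest subunit, which joins the catalytic and the TPR arms of the complex. It stood at 73.2, 82.2 and 81.9 CPM in control replicates 1 to 3 and 37.8, 34.1 and 27.7 CPM in talazoparib replicates 1 to 3. All 3 talazoparib libraries were below every control, and its log2 fold change was -1.25 ± 0.11, edgeR adjusted p = 9.69e-06. ANAPC4 (chromosome 4, 25377213 to 25418498), part of the same platform, stood at 15.6, 19.2 and 17.7 CPM in control replicates 1 to 3 and 8.25, 6.88 and 8.19 CPM in talazoparib replicates 1 to 3. It also separated the groups, with a log2 fold change of -1.17 ± 0.14, edgeR adjusted p = 3.05e-05. Both remained lower trend-removed, at -0.68 and -0.67. The third platform subunit, ANAPC5, went the other way, from 203 ± 7.41 to 243 ± 13.1 CPM, a log2 fold change of 0.26 ± 0.07, edgeR adjusted p = 0.00827, and was higher trend-removed too (0.16).

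The catalytic subunits rose. ANAPC11 (chromosome 17, 81890790 to 81900991), the RING subunit that receives the ubiquitin-charged enzyme, stood at 116, 100.2 and 103 CPM in control replicates 1 to 3 and 152, 160.0 and 154 CPM in talazoparib replicates 1 to 3. Its 3 talazoparib libraries lay above every control, and the log2 fold change of 0.54 ± 0.08, edgeR adjusted p = 0.000127 was the largest rise among the 34. ANAPC2, the cullin that holds ANAPC11, rose from 73.1 ± 5.77 to 99.3 ± 4.53 CPM (0.44 ± 0.08, edgeR adjusted p = 0.000733). Neither passed trend-removed, where ANAPC11 had 0.07 and ANAPC2 -0.03. At 57.68% and 63.34% GC, they lie in deciles where 54.4% and 66.2% of all genes rose.

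Of the TPR subunits, which form the arm that binds the coactivators, CDC16 and CDC27 fell. CDC27 (chromosome 17, 47117703 to 47189422) stood at 59.5, 72.8 and 69.0 CPM in control replicates 1 to 3 and 44.6, 34.6 and 57.5 CPM in talazoparib replicates 1 to 3. Talazoparib replicate 3 came close to the lowest control without reaching it, and the log2 fold change was -0.56 ± 0.15, edgeR adjusted p = 0.00907. CDC16 (chromosome 13, 114234887 to 114272723) stood at 37.6, 38.3 and 41.0 CPM in control replicates 1 to 3 and 31.1, 26.7 and 24.2 CPM in talazoparib replicates 1 to 3, with a log2 fold change of -0.51 ± 0.11, edgeR adjusted p = 0.00146. Trend-removed, CDC16 was still lower (-0.35), and CDC27 was higher (0.20), so the call for CDC27 has opposite signs in the 2 fits. CDC23 went from 36.1 ± 2.12 to 31.9 ± 1.99 CPM and ANAPC7 from 94.7 ± 4.86 to 100.2 ± 8.88 CPM, and neither passed (log2 fold changes of -0.18 ± 0.09, edgeR adjusted p = 0.115 and 0.08 ± 0.09, edgeR adjusted p = 0.438). CDC23 passed as lower without control replicate 1 (-0.27) and with total count scaling (-0.26), and was higher trend-removed (0.20), as was ANAPC7 (0.23).

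Of the small subunits, ANAPC15, which helps release checkpoint proteins from the complex, rose from 40.0 ± 3.20 to 48.9 ± 4.57 CPM (0.29 ± 0.10, edgeR adjusted p = 0.0236), and ANAPC16 rose from 51.0 ± 2.45 to 60.0 ± 4.95 CPM (0.24 ± 0.09, edgeR adjusted p = 0.0368). Both rises were lost without control replicate 2, control replicate 3 or talazoparib replicate 1, and ANAPC15 also without talazoparib replicate 2 and ANAPC16 without talazoparib replicate 3. In those fits their log2 fold changes were 0.19 to 0.31 and 0.18 to 0.22. Trend-removed, both were higher (0.33 and 0.54). CDC26, which stabilises CDC16, went from 11.2 ± 0.829 to 9.71 ± 1.92 CPM and ANAPC13 from 17.8 ± 0.916 to 15.9 ± 1.68 CPM, and neither passed. CDC26 passed as lower only without talazoparib replicate 2 (-0.37), the one talazoparib library in which it was not below every control. ANAPC10, a substrate receptor with the coactivators, was the least abundant core gene per length and went from 8.11 ± 1.11 to 8.92 ± 1.89 CPM. It did not pass (0.14 ± 0.17, edgeR adjusted p = 0.519), though trend-removed it was higher (0.77).

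**Figure D2:**
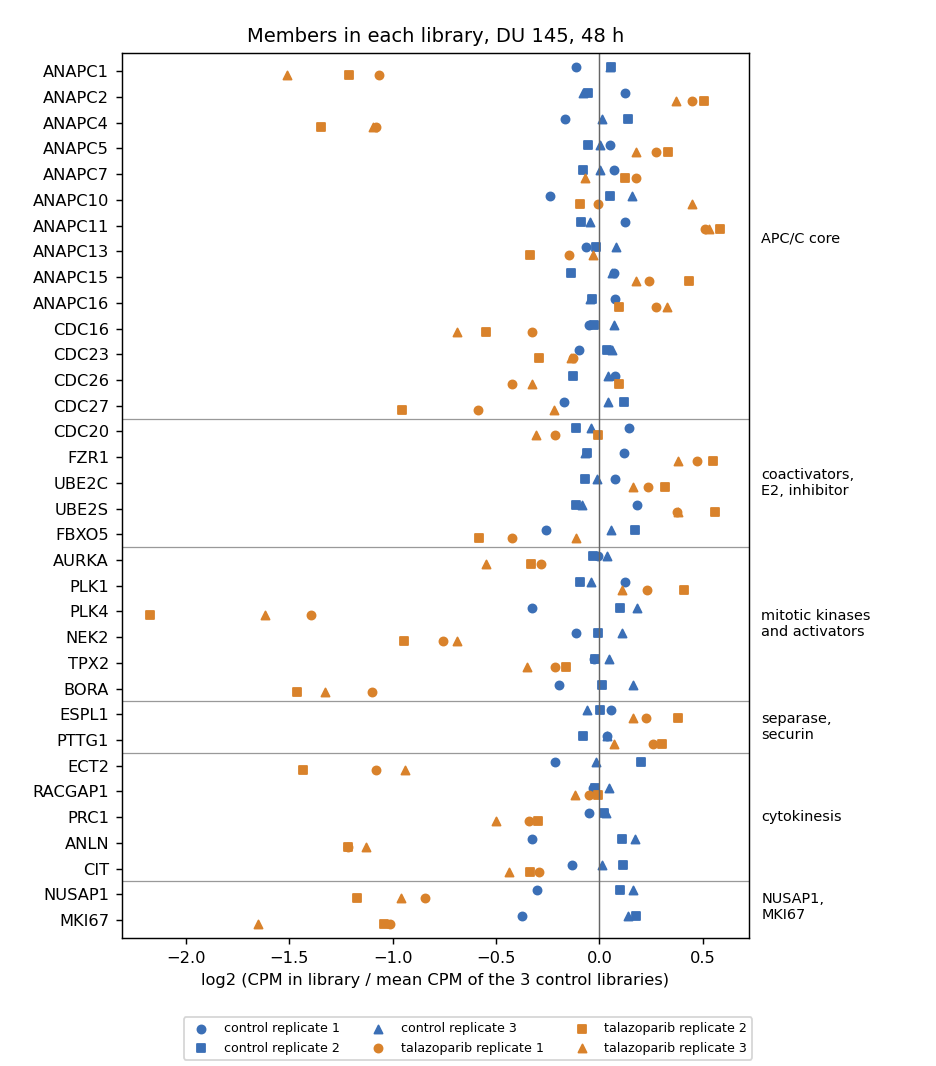
Each member in each of the 6 libraries, as log2 of its CPM over the mean CPM of the 3 control libraries, with controls in blue and talazoparib in orange and a marker shape for each replicate. PLK4 lies furthest to the left, and control replicate 1 lies left of the other controls for most of the genes that fell.

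Of the coactivators of the APC/C, FZR1 rose and CDC20 did not pass. FZR1 (chromosome 19, 3506273 to 3538330) stood at 126, 111 and 111 CPM in control replicates 1 to 3 and 161, 170.4 and 151 CPM in talazoparib replicates 1 to 3. Every talazoparib library was above every control, and FZR1 rose by a log2 fold change of 0.47 ± 0.08, edgeR adjusted p = 0.000443 and was higher trend-removed (0.26). CDC20 (chromosome 1, 43358955 to 43363203) stood at 530.3, 443 and 466 CPM in control replicates 1 to 3 and 413, 478 and 388 CPM in talazoparib replicates 1 to 3. Here the groups overlapped, since talazoparib replicate 2 was above control replicates 2 and 3, and CDC20 did not pass (-0.17 ± 0.09, edgeR adjusted p = 0.141). It passed as lower without control replicate 2 (-0.26), without talazoparib replicate 2 (-0.26) and with total count scaling (-0.24). Trend-removed, CDC20 was lower (-0.65, adjusted p = 5.3e-06). At 57.91% GC it lies in a decile where 54.4% of all genes rose, 3.94% fell and the median log2 fold change was 0.33.

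Within each library, the ratio of CDC20 to FZR1 per length was 18.2, 17.3 and 18.3 in control replicates 1 to 3. With talazoparib it was 11.1, 12.2 and 11.1. The ratio fell by 0.64 on the log2 scale, with no overlap (two-sided exact permutation p = 0.1, the smallest that 3 against 3 allows; 7 ratios were computed). The difference between their trend-removed log2 fold changes was -0.91. The ratio of the APC/C inhibitor FBXO5 to FZR1 went from 0.367 ± 0.0777 to 0.206 ± 0.0472 (SD, n = 3 each), a log2 difference of -0.83 that was -0.11 trend-removed. The ratio of UBE2C to UBE2S had a log2 difference of -0.20, and -0.14 trend-removed.

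The ubiquitin-conjugating enzymes both rose. UBE2C, which starts ubiquitin chains on APC/C substrates, stood at 142, 129 and 134 CPM in control replicates 1 to 3 and 159, 168 and 151 CPM in talazoparib replicates 1 to 3. The groups did not overlap, and its log2 fold change was 0.24 ± 0.08, edgeR adjusted p = 0.0166. UBE2S, which lengthens those chains, stood at 484, 395 and 403 CPM in control replicates 1 to 3 and 554, 629.5 and 556 CPM in talazoparib replicates 1 to 3, also without overlap, with a log2 fold change of 0.44 ± 0.09, edgeR adjusted p = 0.00153. Trend-removed neither passed (0.02 for UBE2C and 0.16 for UBE2S), and the rise of UBE2C was lost without control replicate 2 or 3 or talazoparib replicate 1 or 2 (0.17 to 0.24). FBXO5 (EMI1), which blocks the complex in S and G2 phase, stood at 11.8, 15.9 and 14.7 CPM in control replicates 1 to 3 and 10.5, 9.46 and 13.1 CPM in talazoparib replicates 1 to 3. Talazoparib replicate 3 was above control replicate 1, and FBXO5 did not pass (-0.36 ± 0.16, edgeR adjusted p = 0.0652). It passed as lower without control replicate 1 (-0.51), without talazoparib replicate 3 (-0.50) and with no filter on low counts (-0.36). Trend-removed, FBXO5 had the other sign and did not pass (0.15, adjusted p = 0.226).

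Among the mitotic kinases and their activators, 5 of 6 fell and PLK1 rose, with a median log2 fold change of -0.59. Of all genes tested 29.9% fell and 26.8% rose. PLK4 (chromosome 4, 127880861 to 127899195), the kinase that starts centriole duplication, stood at 11.1, 14.9 and 15.8 CPM in control replicates 1 to 3 and 5.29, 3.08 and 4.54 CPM in talazoparib replicates 1 to 3. No talazoparib library reached a control, and the log2 fold change of -1.69 ± 0.20, edgeR adjusted p = 4.77e-05 was the largest fall among the 34. BORA (chromosome 13, 72727749 to 72756198), the cofactor with which Aurora A activates PLK1 and a gene whose exons overlap DIS3 on the other strand, stood at 6.73, 7.76 and 8.61 CPM in control replicates 1 to 3 and 3.59, 2.79 and 3.07 CPM in talazoparib replicates 1 to 3, and fell with a log2 fold change of -1.29 ± 0.17, edgeR adjusted p = 6.93e-05. NEK2, a kinase of centrosome separation, stood at 19.5, 21.0 and 22.8 CPM in control replicates 1 to 3 and 12.5, 10.98 and 13.1 CPM in talazoparib replicates 1 to 3, with a log2 fold change of -0.79 ± 0.12, edgeR adjusted p = 0.000176. All 3 separated the groups and were lower trend-removed: PLK4 at -1.06, BORA at -0.79 and NEK2 at -0.32. At 38.43%, 41.1% and 41.81% GC, they lie in deciles where 66.0%, 66.9% and 61.7% of all genes fell.

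AURKA, the kinase of spindle poles, stood at 184, 180.4 and 189 CPM in control replicates 1 to 3 and 152, 146 and 126 CPM in talazoparib replicates 1 to 3. The groups did not overlap, and AURKA fell with a log2 fold change of -0.38 ± 0.08, edgeR adjusted p = 0.00178, or -0.24 trend-removed. TPX2, which activates and places Aurora A on the spindle, fell from 361 ± 10.3 to 306 ± 20.6 CPM (-0.24 ± 0.07, edgeR adjusted p = 0.0151). Its call ended without talazoparib replicate 1 (-0.25) and trend-removed (-0.09). PLK1 (chromosome 16, 23677656 to 23690367), which acts from mitotic entry to cytokinesis, stood at 252, 217 and 225 CPM in control replicates 1 to 3 and 272, 307 and 249 CPM in talazoparib replicates 1 to 3. Talazoparib replicate 3 was below control replicate 1, so the groups overlapped, and the rise of 0.26 ± 0.09, edgeR adjusted p = 0.0285 was lost without control replicate 2 or 3, without talazoparib replicate 1 or 2 (0.17 to 0.27) and with total count scaling (0.18). Trend-removed, PLK1 was lower (-0.16). The ratio of PLK1 to BORA per length went from 42.5 ± 8.50 to 124 ± 25.7 (SD, n = 3 each), a log2 difference of 1.54 that was 0.63 trend-removed. The ratio of AURKA to TPX2 had a log2 difference of -0.14, and -0.15 trend-removed.

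Both partners of the separase switch rose. ESPL1, which encodes separase, stood at 122, 118 and 112 CPM in control replicates 1 to 3 and 137, 153 and 131 CPM in talazoparib replicates 1 to 3. PTTG1, which encodes securin, stood at 106, 97.7 and 106 CPM in control replicates 1 to 3 and 123, 127 and 108 CPM in talazoparib replicates 1 to 3. In each gene all 3 talazoparib libraries were above all controls, with log2 fold changes of 0.26 ± 0.08, edgeR adjusted p = 0.0144 for ESPL1 and 0.22 ± 0.08, edgeR adjusted p = 0.0408 for PTTG1. These were small rises: that of ESPL1 was lost without control replicate 3 or talazoparib replicate 2 (0.19 and 0.20), and that of PTTG1 without any of the 3 controls or talazoparib replicates 1 and 2 (0.14 to 0.20). Trend-removed, ESPL1 was higher (0.14) and PTTG1 did not pass (0.05). The securin to separase ratio per length was 4.27 ± 0.277 in controls and 4.14 ± 0.194 with talazoparib (SD, n = 3 each; two-sided exact permutation p = 0.6), with overlapping groups.

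Of the cytokinesis genes 4 of 5 fell and 0 rose, against 29.9% and 26.8% of all genes tested. ECT2 (chromosome 3, 172750682 to 172821474), the exchange factor that activates RHOA at the cell equator, stood at 84.4, 113 and 96.6 CPM in control replicates 1 to 3 and 46.3, 36.2 and 51.0 CPM in talazoparib replicates 1 to 3. ANLN (chromosome 7, 36389806 to 36453791), the furrow scaffold anillin, stood at 78.8, 106 and 111 CPM in control replicates 1 to 3 and 42.5, 42.6 and 45.2 CPM in talazoparib replicates 1 to 3. Both were separated from controls in every library, with log2 fold changes of -1.14 ± 0.13, edgeR adjusted p = 4.93e-05 for ECT2 and -1.19 ± 0.12, edgeR adjusted p = 1.74e-05 for ANLN, and both were lower trend-removed (-0.42 and -0.54). At 38.04% and 40.03% GC, they lie in deciles where 66.0% and 66.9% of all genes fell. PRC1, which bundles central spindle microtubules, fell from 273 ± 8.24 to 210.0 ± 15.5 CPM (-0.38 ± 0.08, edgeR adjusted p = 0.00121) and was lower trend-removed by nearly as much (-0.33). The citron kinase gene CIT, which acts at the midbody, fell from 88.8 ± 7.62 to 69.4 ± 3.54 CPM (-0.36 ± 0.09, edgeR adjusted p = 0.00377), a call that ended trend-removed (-0.11).

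RACGAP1, the centralspindlin subunit that recruits ECT2, did not pass. It went from 235 ± 7.0 to 226 ± 8.53 CPM, a log2 fold change of -0.06 ± 0.07, edgeR adjusted p = 0.498 with overlapping groups, and trend-removed it was higher (0.34). The ratio of ECT2 to RACGAP1 per length was 0.279, 0.370 and 0.303 in controls and 0.156, 0.118 and 0.179 with talazoparib, so the groups did not overlap. It fell by 1.08 on the log2 scale, and the difference of the trend-removed fold changes was -0.76.

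MKI67 and NUSAP1 both fell. MKI67 (chromosome 10, 128096659 to 128126385) encodes Ki-67, which coats mitotic chromosomes and is used as a marker of cycling cells, and it stood at 339.5, 498 and 485 CPM in control replicates 1 to 3 and 218, 214 and 140.4 CPM in talazoparib replicates 1 to 3. Control replicate 1 and talazoparib replicate 3 were the low libraries of their groups, and no talazoparib library reached a control. The log2 fold change was -1.21 ± 0.18, edgeR adjusted p = 0.000421, between -1.41 and -1.03 when single libraries were left out, and -0.72 trend-removed. NUSAP1 (chromosome 15, 41332694 to 41381050), which binds spindle microtubules near chromosomes, stood at 96.0, 127 and 132 CPM in control replicates 1 to 3 and 66.0, 52.6 and 60.9 CPM in talazoparib replicates 1 to 3. It fell with a log2 fold change of -0.99 ± 0.12, edgeR adjusted p = 7.39e-05, and was lower trend-removed (-0.56).

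**Figure D3:**
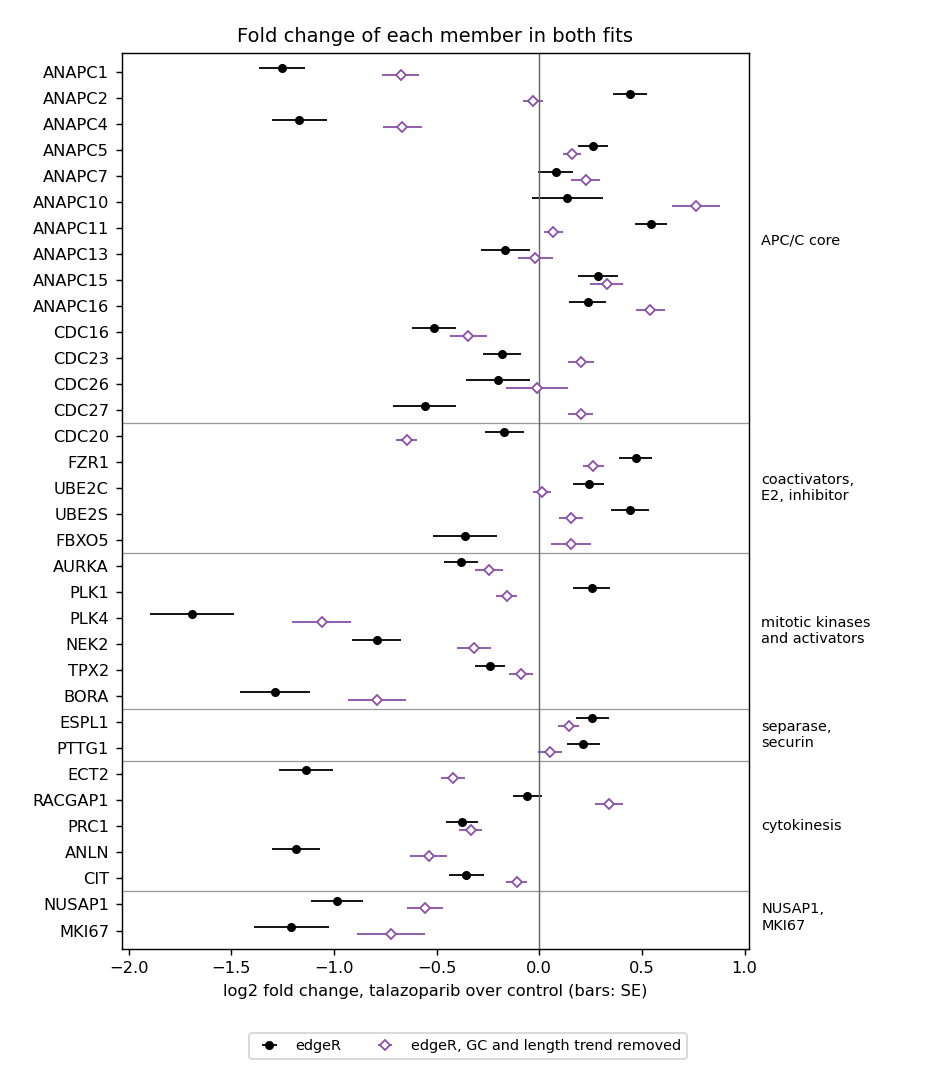
Log2 fold change of each member, talazoparib over control, with its SE, from edgeR (black circles) and from edgeR with the GC and length trend removed (open diamonds). PLK4, BORA, ANAPC1, ANAPC4, ECT2, ANLN, NUSAP1 and MKI67 lie left of 0 in both fits, CDC20 lies further left trend-removed, and ANAPC2, CDC23, CDC27, FBXO5, PLK1 and RACGAP1 lie on opposite sides of 0.

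Levels between genes were compared per length, as FPKM from the authors' table. CDC20 was the most abundant member in controls at 298 ± 19.8 FPKM, followed by UBE2S at 129 ± 11.4 FPKM (SD, n = 3 each). UBE2C, PLK1 and TPX2 came next at 113 ± 2.57, 109.6 ± 5.76 and 105 ± 4.49 FPKM, and their ranges overlapped in that order. PLK4, BORA and ANAPC10 were lowest at 3.32 ± 0.660, 2.63 ± 0.368 and 2.01 ± 0.316 FPKM, again with overlapping neighbours. In the order of all 34, 22 of the 33 neighbouring pairs overlapped between their control libraries. The core subunits, which enter the complex in fixed proportion, spanned 38.6-fold in controls, from ANAPC5 at 77.6 ± 0.914 FPKM to ANAPC10, and 45.7-fold with talazoparib, from ANAPC11 at 96.1 ± 2.20 to ANAPC10 at 2.10 ± 0.497 FPKM. The lengths behind these values are the authors' own, and in 9 members (FZR1, UBE2S, AURKA, NEK2, ECT2, NUSAP1, MKI67, ANAPC15 and CDC26) they exceed all exon bases of the gene in GENCODE 29.

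**Figure D4:**
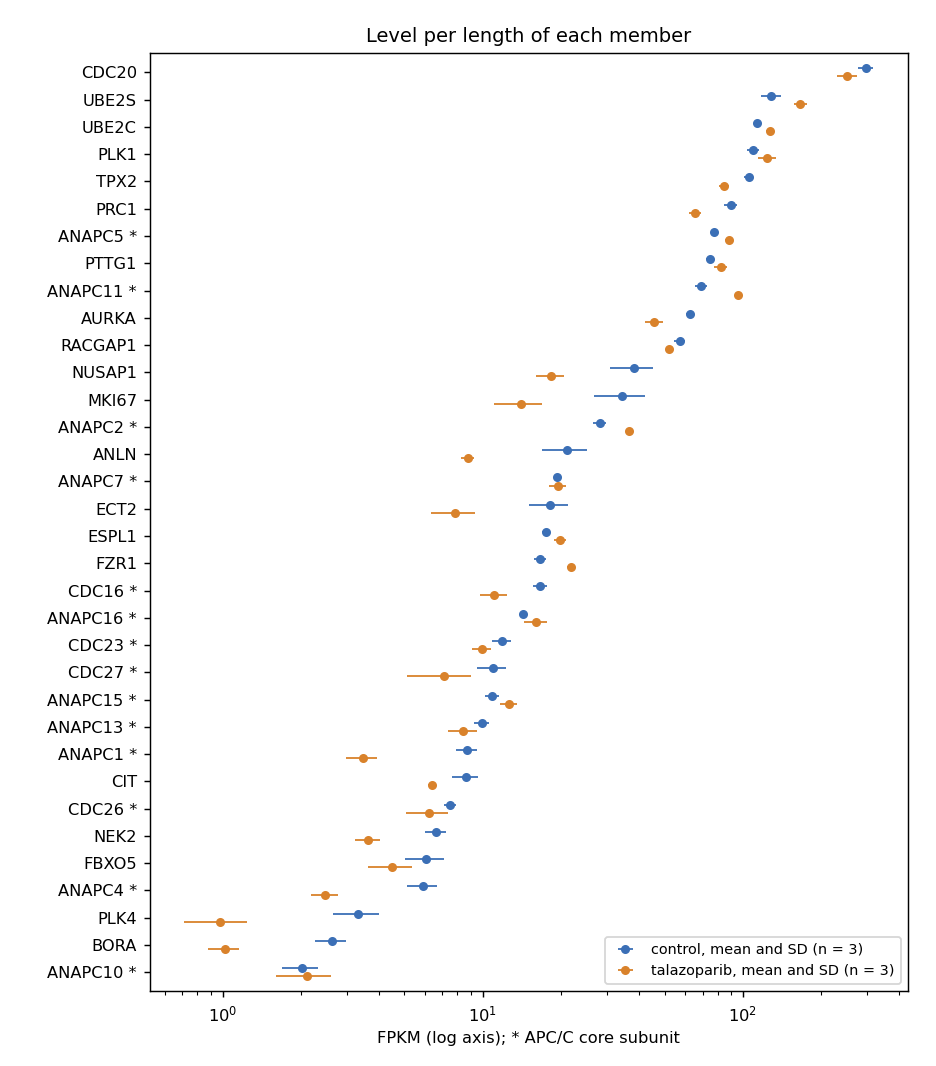
FPKM of each member on a log axis, ordered by the control mean, as mean and SD of 3 libraries in control (blue) and talazoparib (orange). CDC20 stands highest at 298 FPKM in controls, and the core subunits (asterisks) run from ANAPC5 to ANAPC10 at the bottom.

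Some members share exon bases with a neighbour on the other strand, and the strand setting of the counting is not given in the sources used here, so such reads cannot be told apart. DIS3 overlaps 37.0% of the exon bases of BORA and fell from 16.7 to 4.94 CPM (log2 fold change -1.76, edgeR adjusted p = 2.1e-05), so the value of BORA is uncertain. LRTOMT overlaps 27.1% of ANAPC15, PRPF4 17.7% of CDC26, CEP63 13% of ANAPC13 and ABCE1 10.4% of ANAPC10. Of these, ABCE1, CEP63 and PRPF4 fell (-0.96, -0.70 and -0.21) and LRTOMT, at 1.53 CPM in controls, did not pass. PTTG2, a near copy of PTTG1, reached at most 0.0254 CPM.

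Other genes of the same pathway, in 5 lists, moved both ways. Of 16 other APC/C substrates 6 fell and 4 rose (37.5% and 25.0%), with a median of -0.14. Of all genes tested 29.9% fell and 26.8% rose, or 22.2% and 22.0% trend-removed. SKP2 (-0.86 ± 0.09, SE), the cyclin CCNA2 (-0.75 ± 0.11) and the replication licensing inhibitor GMNN (-0.56 ± 0.11) fell, and the thymidine kinase TK1 rose (0.46 ± 0.09). Trend-removed, SKP2 (-0.18) and CCNA2 (-0.33) were lower, GMNN (-0.15) and TK1 (-0.08, with its sign turned) did not pass, and CCNB1 (0.30), CKAP2 (0.31) and RRM2 (0.18), which did not pass before, were higher. These last 3 are named because they make up the whole count, chosen after their values were seen. Of 6 genes of the mitotic checkpoint complex and its disassembly 3 fell and 1 rose (median -0.10): BUB1B (-0.72 ± 0.11), BUB3 (-0.42 ± 0.08) and the ATPase TRIP13 (-0.29 ± 0.07) were lower, and MAD1L1 (0.32 ± 0.10) was higher. The rise of MAD1L1 was lost in 3 of the 6 fits without a single library, and trend-removed it had the other sign and did not pass (-0.10). In that fit 3 of the list were lower and 2 higher: BUB1B (-0.31) and TRIP13 (-0.24) were still lower, and BUB3 was higher (0.33).

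Among 14 mitotic exit phosphatases and their regulators 7 fell and 2 rose, with a median of -0.39. The phosphatase genes CDC14B (-0.80 ± 0.11) and CDC14A (-1.07 ± 0.20), the PP2A-B55 subunit PPP2R2A (-0.61 ± 0.09) and its inhibitor ARPP19 (-0.93 ± 0.13) fell. Trend-removed, CDC14B (-0.32) and ARPP19 (-0.17) were lower, CDC14A (-0.41) and PPP2R2A (0.08, with its sign turned) did not pass, and 3 genes of the list were higher (median 0.07). Of 15 genes of the central spindle, furrow and chromosomal passenger complex 8 fell and 4 rose (53.3% and 26.7%), with a median of -0.36. The kinesins KIF14 (-2.18 ± 0.17) and KIF23 (-0.84 ± 0.10), the septin SEPTIN2 (-0.72 ± 0.09) and the abscission factor CEP55 (-1.11 ± 0.14) fell, and all 4 were lower trend-removed (-1.29, -0.36, -0.32 and -0.65), where the list had 7 lower and 4 higher (median -0.13). KIF23 is the partner of RACGAP1 in centralspindlin. Of 10 abscission genes tested from the ESCRT machinery 2 rose and 2 fell (20.0% each, median -0.07). CHMP4B (0.35 ± 0.08) and CHMP2A (0.38 ± 0.09) rose, and PDCD6IP (-0.36 ± 0.10) and the microtubule-severing SPAST (-0.64 ± 0.18) fell. Trend-removed, 4 genes of the list were higher and 0 lower (median 0.14), and no call of these 4 held: CHMP4B had 0.01, CHMP2A -0.02 and SPAST -0.01, and PDCD6IP was higher (0.45, adjusted p = 0.00143). CHMP3, at 0.123 CPM in controls, was not tested. By edgeR, adjusted p for the 4 genes named first from each list ran from 6.33e-06 (KIF14) to 0.0132 (MAD1L1). For CCNB1, CKAP2 and RRM2, named by their trend-removed calls, edgeR adjusted p was 0.906, 0.0718 and 0.666.

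Across the series, total counts ran from 39123997 to 39585727 per library. The epithelial keratin genes KRT8 and KRT18 stood at 583 and 526 CPM in controls, and EPCAM and the E-cadherin gene CDH1 (not FZR1) were low at 4.74 and 1.37 CPM. KRT19 rose from 41.8 to 91.4 CPM. PTPRC, CD3E and COL1A2 had no count in any library, which allows up to 3 counts (0.073 to 0.0797 CPM) in each, and TMPRSS2, PECAM1, VWF, CDH5 and PDGFRB were under 0.5 CPM in every library. CD68, a lysosomal gene used as a macrophage marker, rose from 25.9 to 66.2 CPM, and its part in other results was not tested. COL1A1 stood at 2.55 CPM in controls, CTNNA1 at 302 CPM, and no row was found under the symbol KLK3.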

How the data were processed

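Bulk RNA-seq of 6 DU 145 libraries was used. The deposited table of raw read counts per gene and the authors' table of FPKM values were made with Trimmomatic, HISAT2, Cufflinks and HTSeq on GRCh38, per the submitters' processing notes, which list these tools without roles. For their versions, the annotation and the strand setting, no source used here names any. The FPKM values equal count over length and total count, checked on the tables. Counts were filtered with edgeR's filterByExpr (minimum count 10), scaled by TMM and tested with edgeR 4.0.16 (quasi-likelihood, Benjamini-Hochberg adjustment over all genes tested, threshold 0.05) in R 4.3.3, talazoparib against control over all 6 libraries. A second fit removed each library's spline trend (5 degrees of freedom) over the GC content of the longest GENCODE 29 transcript (protein-coding where there is one) and the log2 of the authors' gene length, worked out from count and FPKM. FPKM served for levels between genes and for ratios, tested by exact permutation. Scripts were tested on simulated data.

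The members, the pathway lists and the marker lists were chosen with earlier results of these data known. All members are named, with values in every library for those with an absolute log2 fold change of at least 0.5 and for the regulators, and of each pathway list the 4 genes with the smallest adjusted p and any not tested. One marker list held CTNNA1 as a gene lost in DU 145; that was a mistake in the list, and nothing rests on it. Some genes of the marker lists are not reported here. Alternatives were DESeq2 1.42.0, limma-voom (limma 3.58.1), RLE and total count scaling, no filter, a minimum count of 30, a replicate block, and leaving out each library.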

Additional observations from a re-analysis of the deposited data

How the results depend on the processing

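With DESeq2, limma-voom, RLE scaling and a minimum count of 30, each call of the 34 members was as reported; with no filter on low counts FBXO5 also passed as lower. Total count scaling, which moved the median of all genes by -0.07 (log2), left 7 members higher (3 in the core) and put the members' median at -0.27. With the GC and length trend removed, 3 members outside the core were higher, the members' median was -0.0237, and the sign turned for ANAPC2 (-0.0286), CDC23 (0.20), CDC27 (0.20), FBXO5 (0.15), PLK1 (-0.16) and RACGAP1 (0.34); the cause was not tested. Leaving out single libraries gave 5 to 10 members higher and 14 to 17 lower, with a median of -0.27 to -0.19. Of the core subunits 3 to 5 were higher and 4 to 5 lower, and of the other members 2 to 6 and 10 to 12. Over all genes, these fits gave 2622 to 3973 higher and 3731 to 4576 lower. Same-numbered libraries did not deviate together (correlations -0.094, -0.173 and 0.004), and differently numbered ones reached at most 0.188. With 3 libraries per group, such values cannot show whether same-numbered libraries shared a culture or a day, and the labels do not say. With a replicate block, 9 members were higher and 15 lower, ANAPC16 (0.23) and PTTG1 (0.21) no longer passing. The replicate block with the trend removed gave 2 other members higher, a median of -0.0298, and the turned values ANAPC2 -0.0284, CDC23 0.20, CDC27 0.20, FBXO5 0.16, PLK1 -0.16 and RACGAP1 0.33. ANAPC10, which did not pass with all 6 libraries, had the other sign without control replicate 1 (-0.0037) or talazoparib replicate 3 (-0.0477). Each rise lost without a single library had a log2 fold change of at most 0.29 with all 6.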
